A study of Drosophila melanogaster with 30 samples.

Results

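The 35 genes described here encode cytosolic glutathione S-transferases of Drosophila melanogaster. They are 35 of the 15309 probe sets in the table, picked by gene symbol in the platform annotation. The only symbol had to be Gst followed by a class letter (D, E, O, S, T or Z) and a number. This rule uses no measured values, but it was chosen with earlier results of these data known. The 35 genes comprise 11 delta, 14 epsilon, 3 omega, 1 sigma, 4 theta and 2 zeta genes. Each has 1 probe set, and none shared all its values with another probe set.

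Cytosolic glutathione S-transferases join the tripeptide glutathione to reactive or toxic small molecules, which makes these more soluble and ready for export from the cell. The delta and epsilon classes expanded in insects, lie largely in clusters of neighbouring genes, and are known for handling insecticides and plant toxins in gut, fat body and Malpighian tubules. Several of them are induced through CncC, the fly counterpart of the mammalian stress factor Nrf2, which pairs with maf-S and is held in check by Keap1. The omega, sigma, theta and zeta classes are shared with mammals.

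Total RNA of virgin males was hybridised to 30 arrays (Affymetrix Drosophila Gene 1.0), with 10 diet histories and 3 arrays in each. All flies came from a laboratory stock of field-collected origin and were frozen directly. Diet histories are written by the food of successive generations during development (R, rich; P, poor). Flies of the founding generation (F0) were F0-Rich (R) or F0-Poor (P). The F1 groups were F0-Rich_F1-Rich (R-R), F0-Rich_F1-Poor (R-P), F0-Poor_F1-Rich (P-R) and F0-Poor_F1-Poor (P-P). The F2 groups, whose F1 parents were all raised rich, were F0-Rich_F1-Rich_F2-Rich (R-R-R), F0-Rich_F1-Rich_F2-Poor (R-R-P), F0-Poor_F1-Rich_F2-Rich (P-R-R) and F0-Poor_F1-Rich_F2-Poor (P-R-P). The sources used here give no food composition, tissue, age in days or number of flies per sample. Whether replicates were separate cultures is not stated. The p-values therefore reflect only the spread within groups of 3 samples, pooled over the 10 groups, which could be technical.

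On the deposited log scale, taken as log2, the array medians ran from 0.82 to 0.94. The means of 19 testis and of 15 accessory gland markers ran from 3.72 to 4.15 and from 4.78 to 5.21 across arrays, so markers of male tissue were present on each. The second replicates of R-P and P-R-R also carried ovary and yolk transcripts: 26 such markers averaged 3.345 and 3.34 there and 0.53 to 0.70 on the 28 other arrays, and the yolk protein gene Yp1 read 5.24 and 6.57 against 0.19 to 0.74. The same 2 arrays had the lowest means of both male lists. For testis these were 3.74 (R-P) and 3.72 (P-R-R), against 3.90 to 4.15 on the others. For accessory gland they were both 4.78, against 4.80 to 5.21. Replicates 1 and 3 of R-R had the lowest means of 9 fat body markers, 3.88 and 3.68. The next lowest was 4.17, on replicate 2 of P-R-R. All 4 arrays were kept under their labels, and several results that use them are also given without them.

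The first question was whether these genes follow the food on which the flies themselves developed. Averaged over the 5 pairs of groups that differ only in own food, 6 of the 35 genes were lower after poor food: GstD2, GstD5 and GstD1 of the delta class and GstE7, GstE1 and GstE10 of the epsilon class. None was higher by this test (limma, Benjamini-Hochberg adjusted p under 0.05 over all probe sets). Across all probe sets 0.98 percent were called lower and 0.856 percent higher. GstD2 had the largest difference, 3.81-fold lower after poor food, and the 5 others were between 1.31-fold and 2.19-fold lower. After poor food the group means of GstD5 (0.70 to 1.11) and GstE7 (0.85 to 1.26) lay near the array medians of 0.82 to 0.94. The lowest GstD2 value was 0.47, in R-P. How far low signal limits these folds was not tested. Each difference is log2, poor minus rich, and is followed by its standard error (SE) from the model. If the deposited values were natural logarithms, each difference would be 1.44 times larger. Whole-animal or bulk RNA cannot tell fewer cells of a type from less RNA per cell.

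**Figure D1:**
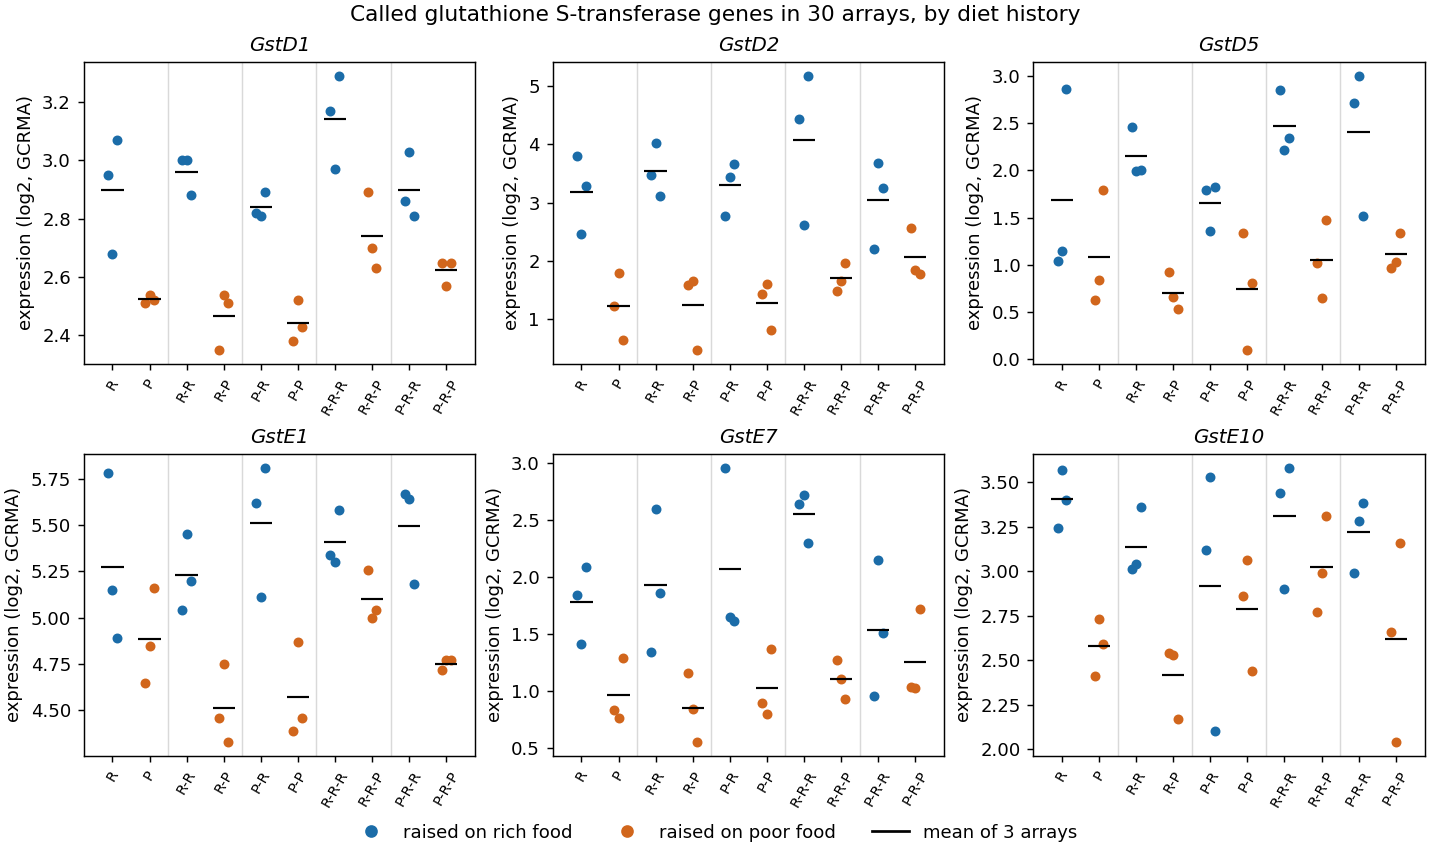
Deposited expression value (log2, y axis) of the 6 called genes on each of the 30 arrays, by diet history (x axis, with the 2 groups of a pair side by side); points are arrays, bars are means of 3, blue is raised rich and orange raised poor. GstD1 separates rich from poor in all 5 pairs, and GstD2 shows the widest gap.

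GstD2 belongs to the delta class, and its product is known to conjugate plant isothiocyanates. In rich-raised flies it read 3.80, 2.47 and 3.29 in R, 3.48, 4.03 and 3.12 in R-R, 2.78, 3.45 and 3.67 in P-R, 4.44, 2.62 and 5.18 in R-R-R, and 2.20, 3.69 and 3.25 in P-R-R. In poor-raised flies it read 1.22, 1.79 and 0.65 in P, 1.58, 1.66 and 0.47 in R-P, 1.43, 1.60 and 0.81 in P-P, 1.48, 1.65 and 1.97 in R-R-P, and 2.56, 1.85 and 1.78 in P-R-P. Of the 15 poor-raised arrays, 14 lay below the lowest rich-raised array, and the groups overlapped in 1 pair, that of P-R-P and P-R-R. The average difference was -1.93 ± 0.21 (limma adjusted p = 2.3e-06, n = 3 per group in each pair). The 2 arrays with ovary transcripts moved it little, to -1.91 ± 0.22 when they were left out.

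GstD5, a delta-class neighbour, read 1.04, 1.15 and 2.86 in R, 2.46, 1.99 and 2.0 in R-R, 1.79, 1.36 and 1.82 in P-R, 2.85, 2.22 and 2.34 in R-R-R, and 2.71, 3.0 and 1.52 in P-R-R. After poor food it read 0.63, 0.84 and 1.79 in P, 0.92, 0.66 and 0.53 in R-P, 1.34, 0.10 and 0.81 in P-P, 1.02, 0.65 and 1.48 in R-R-P, and 0.97, 1.03 and 1.34 in P-R-P. The groups overlapped only in the F0 pair, through replicate 3 of P at 1.79. GstD5 fell by 1.13 ± 0.18 on average (limma adjusted p = 2.42e-04).

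GstD1 encodes a well-studied delta-class enzyme that can break down DDT, and its promoter is widely used to report CncC activity. The rich-raised values were 2.95, 2.68 and 3.07 in R, 3.0, 3.0 and 2.88 in R-R, 2.82, 2.81 and 2.89 in P-R, 3.17, 2.97 and 3.29 in R-R-R, and 2.86, 3.03 and 2.81 in P-R-R. The poor-raised values were 2.51, 2.54 and 2.52 in P, 2.35, 2.54 and 2.51 in R-P, 2.38, 2.52 and 2.43 in P-P, 2.89, 2.70 and 2.63 in R-R-P, and 2.65, 2.57 and 2.65 in P-R-P. It was the only member whose poor-raised arrays all lay below the rich-raised arrays in each of the 5 pairs, 1 of 35, where 0.118 percent of all probe sets had this pattern. Its fall was the smallest of the called members, 0.39 ± 0.05, and had the smallest SE of all 35 (limma adjusted p = 1.03e-05).

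GstE7, of the epsilon class, read 1.84, 1.41 and 2.09 in R, 1.34, 2.60 and 1.86 in R-R, 2.96, 1.65 and 1.61 in P-R, 2.64, 2.72 and 2.30 in R-R-R, and 0.95, 2.15 and 1.51 in P-R-R. Its poor-raised values were 0.83, 0.76 and 1.29 in P, 1.16, 0.84 and 0.55 in R-P, 0.89, 0.80 and 1.37 in P-P, 1.27, 1.10 and 0.93 in R-R-P, and 1.03, 1.02 and 1.72 in P-R-P. The groups were apart in 4 pairs and overlapped for P-R-P and P-R-R, where replicate 1 of P-R-R was as low as the poor-raised flies. The average fall was 0.94 ± 0.15 (limma adjusted p = 2.42e-04).

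GstE1, also epsilon, read 5.78, 5.15 and 4.89 in R, 5.04, 5.45 and 5.20 in R-R, 5.62, 5.11 and 5.81 in P-R, 5.34, 5.30 and 5.58 in R-R-R, and 5.67, 5.64 and 5.18 in P-R-R. After poor food it read 4.65, 4.85 and 5.16 in P, 4.46, 4.75 and 4.33 in R-P, 4.39, 4.87 and 4.46 in P-P, 5.26, 5.0 and 5.04 in R-R-P, and 4.72, 4.77 and 4.77 in P-R-P. The groups were apart in 4 pairs and overlapped in F0. GstE1 fell by 0.62 ± 0.09 (limma adjusted p = 1e-04).

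GstE10 was the least secure of the called genes. Its rich-raised values were 3.24, 3.57 and 3.40 in R, 3.01, 3.04 and 3.36 in R-R, 3.12, 3.53 and 2.10 in P-R, 3.44, 2.90 and 3.58 in R-R-R, and 2.99, 3.28 and 3.38 in P-R-R. Its poor-raised values were 2.41, 2.73 and 2.59 in P, 2.54, 2.53 and 2.17 in R-P, 2.86, 3.06 and 2.44 in P-P, 2.77, 2.99 and 3.31 in R-R-P, and 2.66, 2.04 and 3.16 in P-R-P. The groups were apart only in the F0 pair and in R-P against R-R. The fall of 0.51 ± 0.12 (limma adjusted p = 0.022) was lost when R-R kept its replicate 2 alone, at -0.49 ± 0.14 (adjusted p = 0.0951), and over the 4 pairs that leave out R-P and R-R, at -0.46 ± 0.14 (adjusted p = 0.127).

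The other 29 genes did not pass, with average differences from -0.30 to 0.26 and limma adjusted p from 0.119 to 0.997. At an unadjusted p under 0.05, 11 of the 35 were lower and 1 higher, against 5.1 percent and 5.11 percent of all probe sets. Over the 35 genes 20 differences were below 0 with a median of -0.03, and over all probe sets 52.7 percent were below 0 with a median of -0.01. The same sign in all 5 pairs was seen for 8 members that were lower and 3 that were higher after poor food, against 4.55 percent and 4.49 percent of all probe sets. The 8 were the 6 called genes with GstD4 and GstT1, and the 3 were GstD11, GstS1 and GstZ2.

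**Figure D2:**
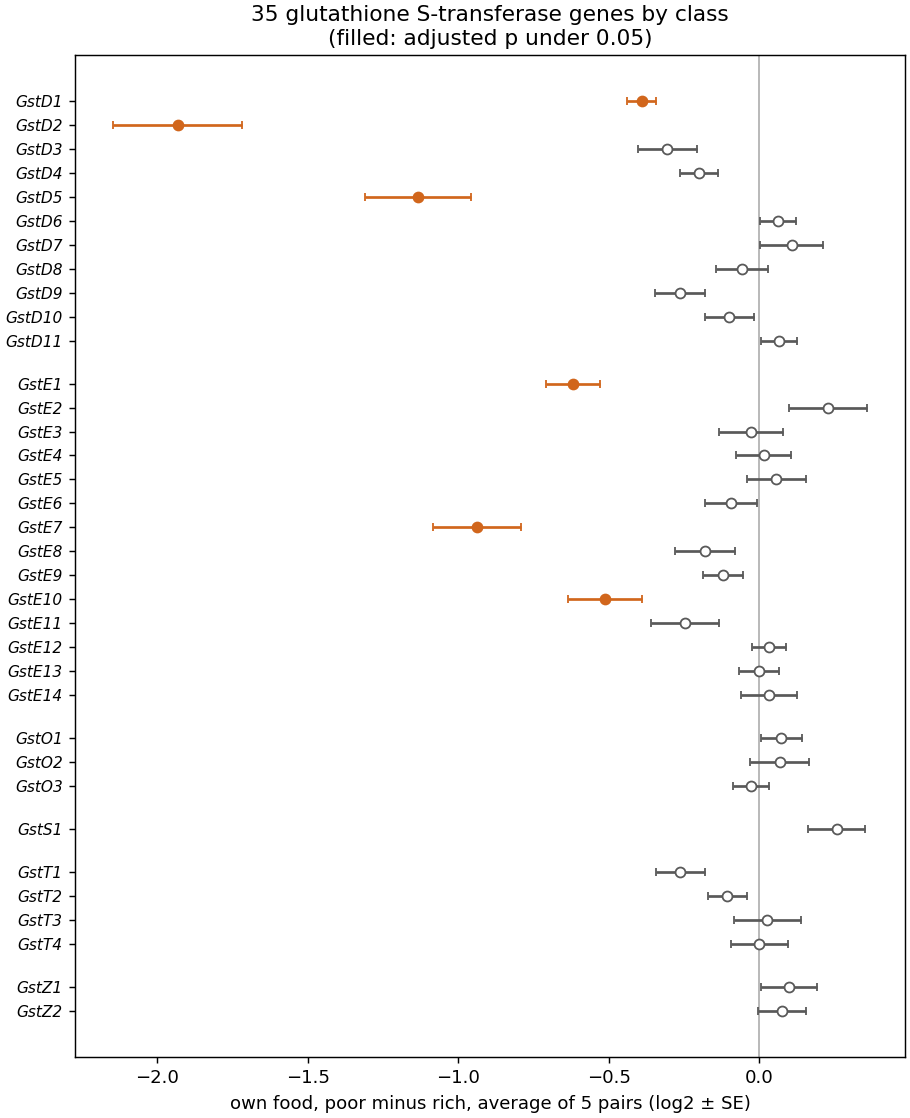
Difference between poor-raised and rich-raised flies averaged over 5 pairs (x axis, log2, with SE as bars) for each of the 35 genes (y axis, by class); filled points passed an adjusted p of 0.05. The 6 filled points lie between -1.93 and -0.39, and the open points between -0.30 and 0.26.

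By class, the delta genes had a median difference of -0.20, with 3 of 11 called lower. Besides the 3 described, GstD3 (mean level 2.38 over the 30 arrays) differed by -0.30 ± 0.10, GstD9 (5.01) by -0.26 ± 0.08 and GstD4 (0.39) by -0.20 ± 0.06. These 3 were past an unadjusted p of 0.05 only. GstD10 (0.67), GstD8 (0.63), GstD6 (0.27), GstD11 (0.76) and GstD7 (1.04) lay between -0.10 and 0.11. The means of GstD4, GstD6, GstD8, GstD10 and GstD11 were below the median of all probe sets, and the files give no detection call. A level is not comparable between probe sets of different genes, so these levels give no order among the genes.

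The epsilon genes had a median of -0.06, with 3 of 14 called lower. GstE11 (mean level 2.35) differed by -0.25 ± 0.11, GstE8 (0.58) by -0.18 and GstE9 (6.10) by -0.12, while GstE2 (1.79) differed by 0.23 ± 0.13, and none of these passed. GstE6 (5.47), GstE3 (3.43), GstE13 (1.67), GstE4 (0.61), GstE12 (1.85), GstE5 (2.07) and GstE14 (1.29) stayed between -0.09 and 0.06. GstE14, also called nobo, acts in ecdysteroid synthesis in the larval prothoracic gland. GstE4 and GstE8 were below the median of all probe sets.

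In the remaining classes limma called 0 of 10 genes, and 2 were past an unadjusted p of 0.05. GstS1, the sigma-class gene, abundant in flight muscle in this species, had a mean level of 7.86 and a difference of 0.26 ± 0.09 (adjusted p = 0.226). It was called higher when replicate 2 of R-R was left out, and replicates 1 and 3 of R-R held its lowest values, 7.20 and 7.17, where replicate 2 read 8.16. Without replicates 1 and 3 its average difference was 0.13 ± 0.08, and that of R-P minus R-R turned from 0.52 ± 0.21 to -0.13 ± 0.24, so the same sign in all 5 pairs was lost. The theta gene GstT1 (1.33) differed by -0.26 ± 0.08 (adjusted p = 0.119), and GstT2 (1.03), GstT3 (2.22) and GstT4 (3.67) by -0.10 to 0.03. The omega genes GstO1 (2.25), GstO2 (1.73) and GstO3 (0.60) lay between -0.03 and 0.07. The zeta genes GstZ1 (1.00) and GstZ2 (0.55), of the class that isomerizes maleylacetoacetate in tyrosine breakdown, differed by 0.10 and 0.08. GstO3 and GstZ2 were below the median of all probe sets.

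**Figure D3:**
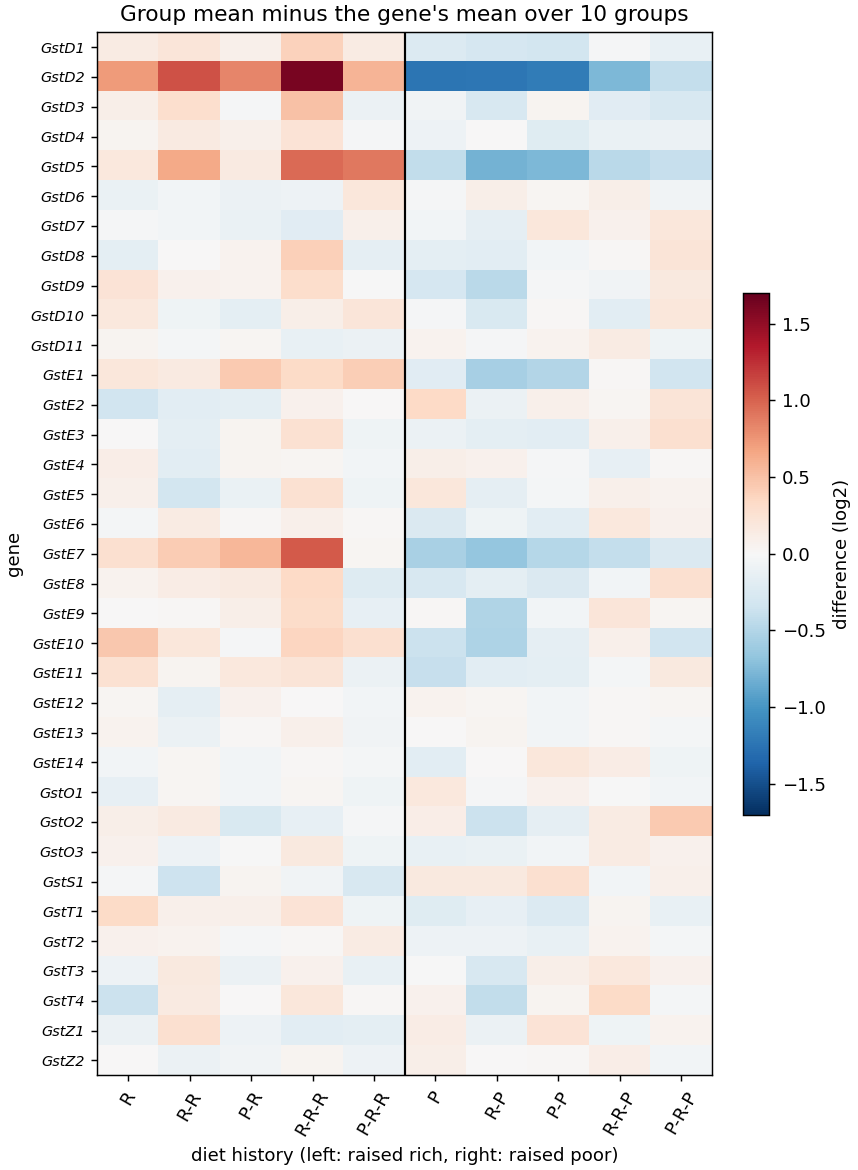
Mean of 3 arrays minus the gene's mean over the 10 groups (colour, log2) for the 35 genes (rows) in each diet history (columns, rich-raised left of the line and poor-raised right of it). GstD2, GstD5 and GstE7 carry most of the colour, and the average own-food differences of the omega, theta and zeta genes lie between -0.26 and 0.10.

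Position was compared with the calls next. In the RefSeq gene table (assembly Release 6 plus ISO1 MT), 10 delta genes are direct neighbours among protein-coding genes, in the order GstD10, GstD9, GstD1, GstD2, GstD3, GstD4, GstD5, GstD6, GstD7 and GstD8. A second run of 10 holds GstE10, GstE1, GstE2, GstE3, GstE4, GstE5, GstE6, GstE7, GstE8 and GstE9. All 6 called genes lay in these runs. In the delta run GstD1 and GstD2 are adjacent, and GstD3 (-0.30) and GstD4 (-0.20), which did not pass, lie between them and GstD5. On the far side of GstD5, the differences of GstD6, GstD7 and GstD8 were 0.06, 0.11 and -0.06. In the epsilon run GstE10 and GstE1 are adjacent, and the 5 genes between them and GstE7 differed by -0.09 to 0.23. Probe sequences were not used here, and how far similar neighbours share signal was not tested.

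**Figure D4:**
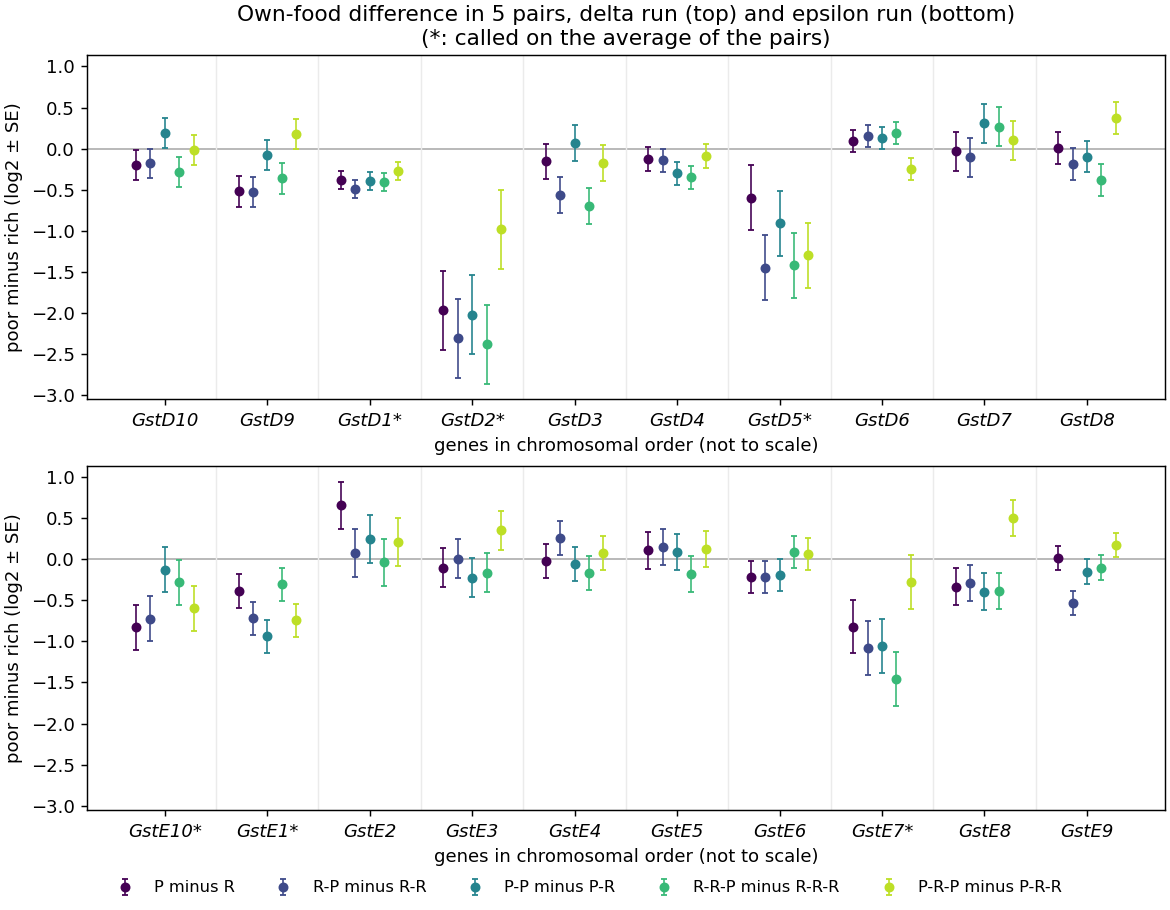
Poor minus rich difference (y axis, log2, with SE as bars) in each of the 5 own-food pairs (colours) for the genes of the delta run (top) and the epsilon run (bottom), in chromosomal order; an asterisk marks the 6 called genes. GstD2, GstD5 and GstE7 stand below their direct neighbours.

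Taken pair by pair, own food gave calls among the members in 1 of the 5 pairs. Each pair had 6 arrays, with the spread estimated from all 30 arrays. In F0, P minus R, limma called 0 of the 35 (0.183 percent of all probe sets) and 10 were past an unadjusted p of 0.05 (6.25 percent), 7 lower and 3 higher after poor food. There GstD2 differed by -1.97 ± 0.48 (adjusted p = 0.123), GstE10 by -0.83 ± 0.27 and GstE7 by -0.82 ± 0.33, and GstD5 was at -0.60 ± 0.39. The 3 higher were GstE2 at 0.65 ± 0.29, GstT4 at 0.44 ± 0.21 and GstO1 at 0.32 ± 0.15. Between R-P and R-R, GstD2 fell by 2.31 ± 0.48 (limma adjusted p = 0.015) and GstD1 by 0.49 ± 0.11 (limma adjusted p = 0.0245). These 2 of 35 stand against 0.601 percent of all probe sets, and 12 members were past an unadjusted p of 0.05 (8.93 percent), 11 lower and 1 higher.

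The adjusted p of both genes in this pair depended on which arrays were used, while their differences stayed between -0.53 and -0.43 for GstD1 and between -2.52 and -1.92 for GstD2 when arrays were left out 1 at a time. GstD1 was no longer called when any 1 of the 6 arrays was left out (limma adjusted p from 0.0592 to 0.135), and GstD2 was not called without replicate 1 or 2 of R-R or replicate 3 of R-P. Without the 2 arrays with ovary transcripts GstD2 was called, at -2.52 ± 0.52 (adjusted p = 0.0316), and GstD1 was not (-0.53 ± 0.12, adjusted p = 0.062). With R-R reduced to its replicate 2, limma called 0 members, with GstD2 at -2.79 ± 0.69 and 7 members past an unadjusted p of 0.05. The remaining R-R array is then assumed to vary like the other groups. Some tissue markers differed in the same pair, where 0.601 percent of all probe sets were called. Of 17 midgut markers 5 fell and 0 rose by limma (named after their values were seen: LManVI at -2.92 ± 0.60, thetaTry at -1.45 ± 0.28, Npc2d at -1.37 ± 0.30, Mal-A2 at -1.32 ± 0.31 and Mur29B at -1.25 ± 0.24). Of 9 fat body markers Lsp2 rose by 2.48 ± 0.37 and Apoltp fell by 1.33 ± 0.19. Without the arrays with ovary transcripts limma called 0 midgut markers, with these 5 at -2.67 to -1.06, and still called both fat body markers. With R-R reduced to its replicate 2, 0 of either list were called. The part of these tissues in the GST values of this pair was not tested.

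In P-P against P-R limma called 0 members (0.0523 percent of all probe sets), and 6 were past an unadjusted p of 0.05 (4.38 percent). GstD2 differed by -2.02 ± 0.48, GstE7 by -1.05 ± 0.33 and GstE1 by -0.94 ± 0.20 (adjusted p = 0.0928). In R-R-P against R-R-R limma again called 0 (0.0588 percent), and 6 were past an unadjusted p of 0.05 (7.75 percent). GstD2 had its widest difference there, -2.38 ± 0.48 (adjusted p = 0.053), as did GstE7, -1.45 ± 0.33. GstD2 was called in that pair when replicate 2 of R-R-R, the lowest of that group at 2.62, was left out.

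The pair P-R-P against P-R-R gave 0 calls (0.0719 percent of all probe sets), with 6 members past an unadjusted p of 0.05 (8.82 percent), 4 lower and 2 higher after poor food. The 2 higher were GstE8 at 0.50 ± 0.22 and GstO2 at 0.47 ± 0.22. GstD5 differed by -1.30 ± 0.39 and GstE1 by -0.74 ± 0.20, within the range of their other pairs. The difference of GstD2 was -0.98 ± 0.48 and that of GstE7 -0.28 ± 0.33, the smallest of their 5 pairs. Without the 2 arrays with ovary transcripts, 1 of which is in P-R-R, they were -0.66 ± 0.52 and 0.03 ± 0.35, a change of sign for GstE7, and GstO2 was at 0.78 ± 0.19. Over the 35 genes 14 differences were below 0 in this pair, against 20 to 25 in each of the 4 others. Of all probe sets 52.3 percent were below 0 in this pair, and 45.6 to 53.2 percent in the 4 others.

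Whether the own-food difference depends on ancestral food was tested as an interaction, poor ancestry minus rich ancestry. In F2 limma called 0 members (0 percent of all probe sets), and 5 were past an unadjusted p of 0.05 (7.64 percent). Of these, 4 had an interaction above 0 and 1, a delta gene, below 0. GstE7 and GstE8 were among the 5, and GstD2 was not. By limma, GstE7 had 1.17 ± 0.46 (adjusted p = 0.571), GstE8 0.89 ± 0.31 (adjusted p = 0.553) and GstD2 1.40 ± 0.68 (adjusted p = 0.653). Without the arrays with ovary transcripts these were 1.48 ± 0.47, 1.08 ± 0.32 and 1.72 ± 0.70, with GstD2 then past an unadjusted p of 0.05 and 0 members called by limma. In that setting 5 members were past it, and 1 of them was below 0, GstD6 at -0.48 ± 0.19. In F1 limma called 0 members (0.00653 percent), and 2 were past an unadjusted p of 0.05 (4.87 percent), GstZ1 at 0.70 ± 0.30 and GstT4 at 0.62 ± 0.30. Without the arrays with ovary transcripts GstT4 was at 0.36 ± 0.28. In that setting 3 members were past an unadjusted p of 0.05, GstO2 at 0.77 ± 0.26, GstZ1 at 0.77 ± 0.32 and GstD3 at 0.71 ± 0.33, and limma called 0. The interaction of GstD2 in F1 was 0.29 ± 0.68, with a 95 percent interval from -1.11 to 1.68. That of GstE7 in F1 was 0.03 ± 0.46, with an interval from -0.92 to 0.98.

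Parental food was compared in F1 flies. In rich-raised sons, P-R minus R-R, limma called 0 members (0.0523 percent of all probe sets) and 0 were past an unadjusted p of 0.05 (5.49 percent). In poor-raised sons, P-P minus R-P, limma called 0 (0.0131 percent) and 3 were past an unadjusted p of 0.05 (6.58 percent). These were GstE9 at 0.47 ± 0.15 (adjusted p = 0.541), GstT4 at 0.46 ± 0.21 and GstD9 at 0.44 ± 0.18. Replicate 2 of R-P, with ovary transcripts, held the lowest values of these 3 genes over all arrays, 5.31 for GstE9, 2.75 for GstT4 and 4.29 for GstD9. Without the arrays with ovary transcripts the differences were 0.34 ± 0.16, 0.21 ± 0.21 and 0.31 ± 0.19, and GstE9 alone was past an unadjusted p of 0.05. On average over both, limma called 0 (0.0196 percent) and 1 was past an unadjusted p of 0.05 (6.77 percent), GstE9, with 0 without the arrays with ovary transcripts. GstD2 had an average parental difference of -0.10 ± 0.34 and GstD1 of -0.07 ± 0.08.

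Grandparental food was compared in F2 flies. In rich-raised flies, P-R-R minus R-R-R, limma called 0 members (0 percent of all probe sets), and 8 were past an unadjusted p of 0.05 (8.57 percent), 7 of them lower with poor-raised grandparents. GstE7 differed by -1.02 ± 0.33 (limma adjusted p = 0.359), GstD2 by -1.03 ± 0.48, GstD3 by -0.60 ± 0.22, GstE8 by -0.56 ± 0.22, GstD8 by -0.55 ± 0.19, GstE9 by -0.45 ± 0.15 and GstD1 by -0.24 ± 0.11. GstD6 differed by 0.28 ± 0.13. Of the 35 genes 27 were below 0 here, with 48.6 percent of all probe sets below 0. Without the 2 arrays with ovary transcripts 27 were again below 0, 10 were past an unadjusted p of 0.05 with 9 of them lower, and GstE7 and GstD2 were at -1.32 ± 0.35 and -1.36 ± 0.52. This comparison shares the R-R-R arrays with the own-food pair R-R-P against R-R-R.

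In poor-raised flies, P-R-P minus R-R-P, limma called 0 members (0 percent), and 1 was past an unadjusted p of 0.05 (5.13 percent), GstD10 at 0.37 ± 0.18. On average over rich-raised and poor-raised flies limma called 0 (0 percent), and 3 were past an unadjusted p of 0.05 (5.51 percent), GstE9 at -0.31 ± 0.11 (adjusted p = 0.666), GstD3 at -0.34 ± 0.15 and GstD1 at -0.18 ± 0.08. Without the arrays with ovary transcripts 7 were past it, 6 of them lower.

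Across generations, the own-food difference in the line with rich-raised ancestors did not differ for any member by limma's F test (0 of 35, and 0 percent of all probe sets). At an unadjusted p of 0.05 there were 3 members (6.95 percent), GstT4, GstE9 and GstO2. GstT4 differed by 0.44 ± 0.21 in F0, -0.57 ± 0.21 in F1 and 0.13 ± 0.21 in F2 (adjusted p = 0.56). Without the arrays with ovary transcripts its F1 value was -0.32 ± 0.21. Among R, R-R and R-R-R, limma called 0 members (0.00653 percent), and 3 were past an unadjusted p of 0.05 (7.48 percent). Over all 10 groups, the F test called GstD1, GstD2, GstD5, GstE1 and GstE7, 5 of 35 (0.882 percent), with adjusted p from 0.00107 to 0.034, and 11 were past an unadjusted p of 0.05 (9.25 percent). GstE10 was not among the 5. Leaving out replicate 3 of R-P, replicate 1 or 2 of R-R-R, or replicate 2 of P-P reduced them to GstD1, GstD2 and GstE1.

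Other genes of glutathione chemistry were read with the same test, which called 0.98 percent of all probe sets lower and 0.856 percent higher. Of 6 measured genes of glutathione synthesis and turnover 1 fell and 0 rose on average over the pairs. It was Gclc, which encodes the catalytic subunit of glutamate-cysteine ligase, the first step of glutathione synthesis (-0.33 ± 0.08, limma adjusted p = 0.0261). Gclm, in the same list, differed by 0.07 ± 0.07 (limma adjusted p = 0.833), and the median of the list was 0.003. Of the 3 regulators 0 passed in limma, with cnc at -0.03 ± 0.06, maf-S at 0.02 ± 0.10 and Keap1 at 0.09 ± 0.06. These 3 were named after their values were seen. Of 13 thiol redox genes 0 passed in limma.

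Of 12 ABCC transporter genes, the family whose members include exporters of glutathione conjugates, CG31793 fell by 0.42 ± 0.11 (limma adjusted p = 0.0309) and 0 rose. Their median was -0.10, against -0.01 for all probe sets. Of 8 other glutathione transferase-like genes 0 passed on average over the pairs. Among these, se, an omega-class gene outside the naming rule that acts in eye pigment synthesis, differed by 0.13 ± 0.06 on average and rose by 0.62 ± 0.14 between R-R and R-P (limma adjusted p = 0.036). That call was lost without the arrays with ovary transcripts, at 0.63 ± 0.16 (adjusted p = 0.127), and with R-R reduced to its replicate 2, at 0.57 ± 0.21 (adjusted p = 0.711). In the same list the zinc finger gene gfzf differed by 0.15 ± 0.08 and Mgstl, for a microsomal enzyme, by 0.12 ± 0.05.

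Some markers of the tissues that express these genes also differed with own food. Of all probe sets, 0.98 percent were called lower and 0.856 percent higher. Of 17 Malpighian tubule markers 3 fell and 0 rose in limma, namely salt (-0.72 ± 0.12), Irk3 (-0.43 ± 0.09) and Dh31-R (-0.28 ± 0.07), and the list mean was 1.996 to 2.25 on rich-raised arrays and 1.92 to 2.14 on poor-raised arrays. Of 17 midgut markers 2 fell and 2 rose, with list means of 4.62 to 5.67 and 4.60 to 5.64. Of 9 fat body markers 1 fell, Apoltp, and 2 rose, Lsp2 and Lsd-1, with means of 3.68 to 4.88 and 4.19 to 5.06. These ranges overlap between the foods. The median differences were -0.02 for the tubule list, -0.04 for midgut and 0.13 for fat body. The part of these tissues in the lower GST values was not tested.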

How the data were processed

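The authors deposited GCRMA values, 1 per probe set on each array, as the submitters' processing notes name the method without a version. Their base is not stated, and the deposited values were treated as log2, the usual GCRMA scale. No detection call is given, and 3 arrays a group limit the precision.

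All 15309 probe sets were fitted with 10 group means in limma 3.58.1 (R 4.3.3, lmFit and eBayes, no covariate or filter), tested on simulated data, and adjusted by Benjamini-Hochberg over the probe sets of each contrast at 0.05. There were 14 contrasts and 3 F tests. Genes came from the platform annotation, and all 35 members matched the RefSeq gene table by gene ID. Every member is named, and members called in any test are given array by array. Genes of other glutathione lists are named where called for own food on average, with se, gfzf and Mgstl. Gclm and the regulators cnc, maf-S and Keap1 are named outside this rule. Members, lists and left-out arrays were chosen with earlier results of these data known. Alternatives changed the scaling, filter, moderation, array weights, arrays used and a block for replicate number.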

Additional observations from a re-analysis of the deposited data

How the results depend on the processing

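All 6 own-food calls on average held under quantile normalization, median centring, a filter on dim probe sets, eBayes with trend and robust, array weights, the replicate block and the removal of the 2 arrays with ovary transcripts, and 5 (without GstE10) without replicates 1 and 3 of R-R or without the pair R-P against R-R. Leaving out each array in turn gave 6 to 8 calls, with GstD2 from -2.08 to -1.82. It gave 0 to 1 for R-P against R-R, 0 to 1 for R-R-P against R-R-R, and 3 to 5 for any difference among groups.

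In R-P against R-R, 2 members became 1 under quantile normalization, after removal of the arrays with ovary transcripts and with only these groups in the fit (GstD5 there), and 0 with trend and robust and without replicates 1 and 3 of R-R. In R-R-P against R-R-R, 0 became 1: GstD2 under quantile normalization, centring, the dim filter, array weights and the removal of the arrays with ovary transcripts, and GstE7 with only these groups. In P-P against P-R, 0 became 1 with array weights (GstE1) and with only these groups (GstD2). The causes were not tested. Replicate numbers did not pair the samples in general, since deviations of same-numbered arrays in different groups correlated at a mean r of 0.01. The highest r was 0.63 for same-numbered arrays and 0.38 for arrays of different number. Whether some same-numbered samples were handled together was not tested. The replicate block left 6 own-food calls, 2 in R-P against R-R and 5 among the 10 groups. None of the called differences changed sign under these alternatives.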

Other observations

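Of the 35 genes, 13 had their highest group mean in R-R-R, where 10.1 percent of all probe sets had theirs. R-R, which like R-R-R had only rich food, held the highest mean of 1 gene (10 percent of all probe sets). It held the lowest mean of 6 genes (9.28 percent). The lowest group mean of 12 genes lay in R-P, where 14.5 percent of all probe sets had theirs. GstE9 ran from 5.58 in R-P to 6.41 in R-R-R and GstD9 from 4.55 to 5.31, between the same groups. R-P includes replicate 2 with ovary transcripts, whose part in these values was not tested. No member was highest in R-P and none lowest in P-R, R-R-P, P-R-R or P-R-P. These counts come without a test.

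The spread within groups was widest for GstD2, with a pooled SD of 0.66, and narrowest for GstD1, with 0.11. The 2 genes are adjacent, and their own-food differences were -1.93 and -0.39.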
